A study of Mus musculus with 30 samples.

Results

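The 49 genes described here act in a pair of phases of the cell division cycle, 24 in S phase, when DNA is copied, and 25 in mitosis, when the copies are separated. They were chosen by name as DNA replication and mitosis genes, with no threshold on values but with earlier results of these data known. Each RNA count table held 24459 genes, and all 49 passed the filter on low counts in every comparison. The mice were C57BL/6. They had an unchanged Ikzf3 gene (WT, labelled Ikzf3+/+) or carried the G158R change in Aiolos, the zinc finger protein that Ikzf3 encodes, in 1 copy (het) or both (homo). RNA came from bone marrow cells enriched for B220 and then sorted. The pre-pro B gate took cells with AA4.1 and CD43 on their surface and without IgM or CD24, and the pre-B gate took cells with AA4.1 and CD24 and without IgM or CD43. Each of the 6 groups had 3 libraries, 18 in all. The labels do not state that replicates came from separate animals. The het and homo groups each hold XX and XY libraries and so span more than 1 animal, while for WT the spread behind a p-value may be technical. Age was not given in the sources used here.

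A cell about to divide first loads the Mcm helicase onto its replication origins, then fires them and copies its DNA, and later condenses and separates its chromosomes under the control of Cdk1 and its cyclins. E2F factors switch on most S phase genes at the border of G1 and S. Most mitosis genes peak later, through a DREAM or B-Myb–MuvB complex and FoxM1, which act at CHR elements and nearby CCAAT boxes bound by NF-Y. In the bone marrow, pre-B cells pass through a burst of division driven by the pre-B cell receptor and interleukin 7, and Ikaros family factors such as Ikaros and Aiolos are known to restrain that burst. RNA of these genes in a sorted population can therefore reflect how many cells are cycling. In such bulk samples more cycling cells and more RNA per cycling cell cannot be told apart.

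Promoters show how the groups are built, so a few are printed here to display the elements that differ between them. RefSeq promoter windows on GRCm38.p6, from 250 bases before to 50 after a start site, were matched for 39 of the 49 genes, 20 of S phase and 19 of mitosis. Unmatched were Mcm4, Gins1, Gins2, Ccne2, Ccna2, Aurkb, Foxm1, Kif20a, Tpx2 and Cdc25c. Each sequence runs 5′ to 3′ on the strand of its gene over 150 bases upstream of the start site. All end at the base before it except for Mcm5, which covers −191 to −42, and Top2a, which covers −160 to −11. Capitals mark E2F sites (TTTGGCGC, TTTCGCGC or TTTGCCGC), CHR elements (TTTGAA) and CCAAT boxes (CCAAT) on either strand, so that a reverse CHR element reads TTCAAA and a reverse CCAAT box ATTGG. Mcm5 lies at chr8:75109318-75109467 on the plus strand and Mcm6 at chr1:128359706-128359855 on the minus strand. Their capital runs of 12 bases are each 2 E2F sites on opposite strands that share 4 bases.
Mcm5: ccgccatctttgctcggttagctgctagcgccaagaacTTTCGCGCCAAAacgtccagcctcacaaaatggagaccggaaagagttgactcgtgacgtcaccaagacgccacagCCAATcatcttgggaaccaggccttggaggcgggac
Mcm6: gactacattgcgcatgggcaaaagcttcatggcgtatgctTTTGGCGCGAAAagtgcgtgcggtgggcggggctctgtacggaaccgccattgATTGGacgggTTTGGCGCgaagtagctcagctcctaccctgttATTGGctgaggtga
The mitosis windows lie at chr10:69352913-69353062 (Cdk1, minus strand), chr4:118437344-118437493 (Cdc20, minus strand), chr19:37376232-37376381 (Kif11, plus strand), chr11:99024200-99024349 (Top2a, minus strand) and chr2:164769779-164769928 (Ube2c, plus strand). Each has a CHR element within 30 bases of the start site and at least 1 CCAAT box upstream of it.
Cdk1: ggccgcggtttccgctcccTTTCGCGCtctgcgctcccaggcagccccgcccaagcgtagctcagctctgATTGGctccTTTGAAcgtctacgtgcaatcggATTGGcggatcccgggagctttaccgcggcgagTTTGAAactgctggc
Cdc20: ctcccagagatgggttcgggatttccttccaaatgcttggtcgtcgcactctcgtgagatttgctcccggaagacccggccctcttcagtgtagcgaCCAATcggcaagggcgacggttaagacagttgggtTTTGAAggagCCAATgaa
Kif11: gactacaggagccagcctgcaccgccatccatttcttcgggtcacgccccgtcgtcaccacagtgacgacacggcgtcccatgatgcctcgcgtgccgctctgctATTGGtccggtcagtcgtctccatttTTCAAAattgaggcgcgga
Top2a: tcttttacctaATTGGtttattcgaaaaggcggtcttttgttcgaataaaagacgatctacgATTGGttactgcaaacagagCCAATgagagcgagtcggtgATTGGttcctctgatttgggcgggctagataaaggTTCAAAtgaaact
Ube2c: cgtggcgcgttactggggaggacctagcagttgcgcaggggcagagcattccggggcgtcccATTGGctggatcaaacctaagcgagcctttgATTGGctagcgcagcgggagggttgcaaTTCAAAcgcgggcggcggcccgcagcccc

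The elements divided between the groups over all matched windows too. An E2F site in a form listed above was present in 8 of 20 S phase genes (40%) and in 1 of 19 mitosis genes (5.26%), Cdk1. It was present in 1.73% of the 17380 genes with a window. Other forms of the site were not searched, so a gene without a match may still hold one. The CHR element was present in 12 of 19 mitosis genes (63.2%), 3 of 20 S phase genes (15%) and 17.7% of all genes. CCAAT boxes were common in both, in 14 S phase genes (70%) and 16 mitosis genes (84.2%), against 42% of all genes. All 12 mitosis genes with a CHR element also had a CCAAT box (63.2%), a pair found in 3 S phase genes (15%) and in 8.19% of all genes. The letters TGGGAA, the core bound by Ikaros family factors, were in 7 S phase genes (35%) and 3 mitosis genes (15.8%), against 27.1% of all genes. Counted matches overlapped by 1 to 4 bases in 6 windows, between E2F sites in Mcm5 and Mcm6, between an E2F site and a CCAAT box in Mcm7, between CCAAT boxes in Uhrf1 and Ube2c and between a CCAAT box and the TGGGAA core in Ccnb1. A match is a description of letters, not a measured binding site.

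**Figure D1:**
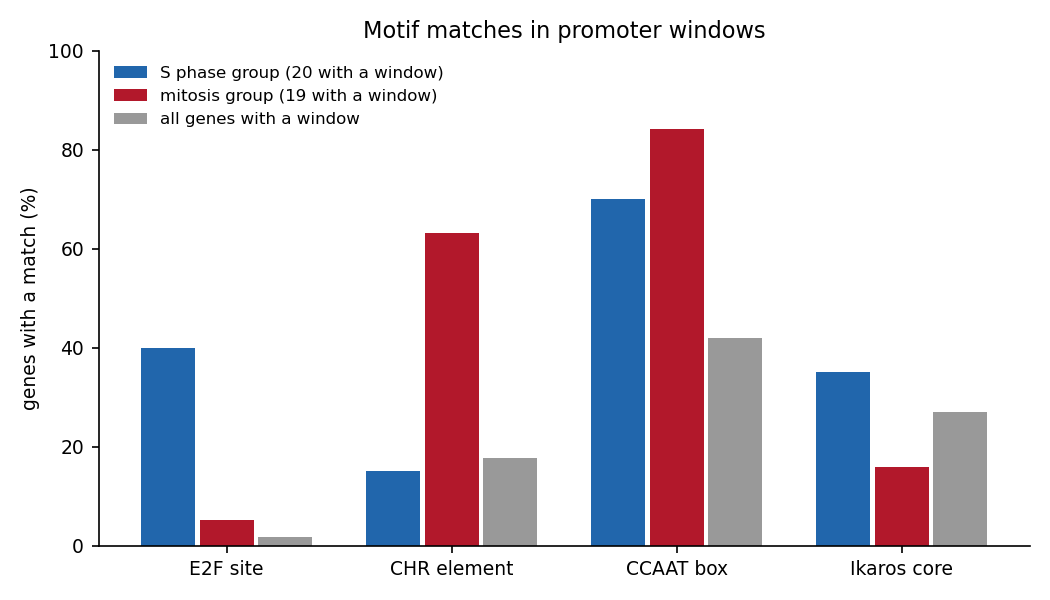
Share of genes (%, vertical axis) whose RefSeq promoter window holds a match to each motif, for the S phase group (blue), the mitosis group (red) and all genes with a window (grey). E2F sites stand out in the S phase group at 40% and CHR elements in the mitosis group at 63.2%.

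The libraries differed in depth, sex and makeup. Gene counts ran from 1888871 to 9048055 per library, and in pre-pro B cells all WT libraries (5443344 to 6492192) were less deep than all homo libraries (8592557 to 9048055). Xist and Y-linked counts showed all 6 WT libraries to be XX, while het replicate 2 and homo replicates 1 and 3 were XY at both stages. The third homo pre-B library was the least deep. Counts of Actb hardly followed depth. It had 2009 to 2650 counts in the 17 libraries with 4265056 or more gene counts and 1500 in the third homo pre-B library. The CPM of Actb therefore tended to be lower in deeper libraries. The gene-count total of homo pre-B replicate 3 was 30.3% of the mean of replicates 1 and 2. Single S phase genes ran from 13.7% to 60.5% of theirs and mitosis genes from 21.4% to 60.6%. The medians were 33.1% for S phase and 39.6% for mitosis, against 26.7% over the 6782 genes with a mean of at least 200 counts. Members with more counts than Actb did not share a pattern, with Top2a at 60% and E2f2 at 19.9%. How far levels and fold changes of the members carry such shifts was not tested. Marker levels differed between the gates: 12 B lineage markers summed to 529 to 801 CPM (gene counts brought to a common library size, which TMM scaled for composition) in pre-pro B cells and to 3592 to 6414 in pre-B cells, and 15 plasmacytoid dendritic cell markers to 5935 to 9225 and 1217 to 1603.

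Both groups of genes stood lowest in WT pre-pro B cells, higher in het and homo pre-pro B cells and highest in pre-B cells of all genotypes. The level of a group in a library is the mean over its genes of log2(CPM + 1). For the S phase group it was 5.54, 5.34 and 5.76 for the WT pre-pro B libraries, 5.96, 6.30 and 5.90 for het and 6.16, 6.25 and 6.32 for homo. The mitosis group stood at 5.17, 4.59 and 5.96 for WT, 6.19, 6.64 and 6.18 for het and 6.70, 6.69 and 6.69 for homo. In both groups every het and homo library lay above every WT library, and het replicate 2 lay above homo replicate 1 in the S phase group.

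The WT pre-pro B libraries kept 1 order over nearly all of these genes. All 25 mitosis genes had their highest WT value in replicate 3 and their lowest in replicate 2, with a median ratio of 2.86 between them (1.58 to 3.82). Of the S phase genes 22 of 24 peaked in the same library and 22 were lowest in replicate 2, at a median ratio of 1.36 between the highest and lowest libraries. Among het libraries replicate 2 was highest for all 25 mitosis genes and 23 S phase genes, with a median ratio of 1.41 for mitosis. The homo libraries differed least, with a median ratio of 1.06 for the mitosis group. On the same log2 scale the mitosis level minus the S phase level was −0.31 ± 0.48 (SD, n = 3) in WT, 0.29 ± 0.056 in het and 0.45 ± 0.085 in homo pre-pro B cells.

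The S phase level in pre-B cells was 7.13, 7.16 and 7.14 for WT, 7.17, 7.22 and 7.26 for het and 7.32, 7.38 and 7.58 for homo. The mitosis level was 7.78, 7.88 and 7.88 for WT, 7.95, 8.15 and 7.88 for het and 8.05, 8.01 and 8.58 for homo. Here the 3 WT libraries were close to each other, and the highest value of both groups came from homo replicate 3, the library with the fewest counts.

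**Figure D2:**
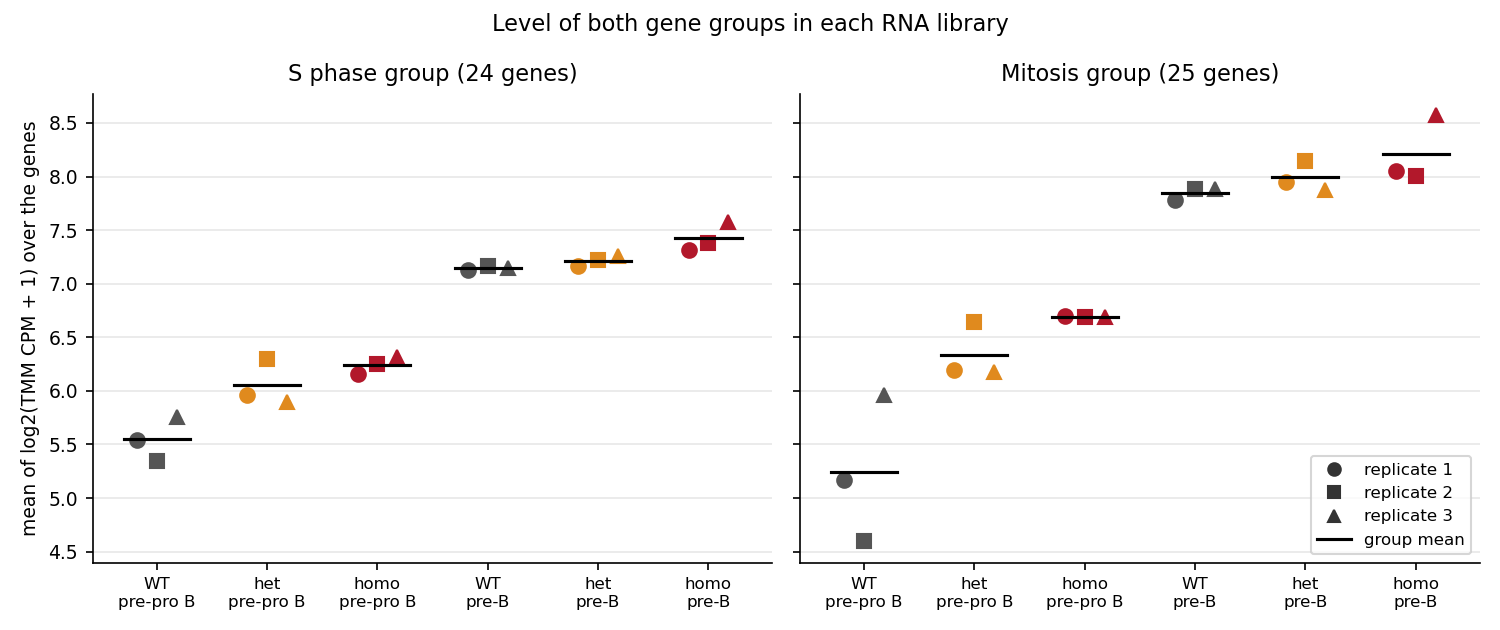
Mean of log2(CPM + 1) over the 24 S phase genes (left) and the 25 mitosis genes (right) in each RNA library, by genotype and stage, with circles, squares and triangles for replicates 1, 2 and 3 and lines at group means. The WT pre-pro B libraries spread from 4.59 to 5.96 in the mitosis group, while the homo ones lie together at 6.69 to 6.70.

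Homo pre-pro B cells had more RNA of nearly every replication and mitosis gene than WT pre-pro B cells. By edgeR's quasi-likelihood test with Benjamini-Hochberg adjustment over the 12188 genes tested, 22 of 24 S phase genes and 24 of 25 mitosis genes rose (adjusted p under 0.05) and none fell, where 12.0% of all genes tested rose and 10.4% fell. The median log2 fold change was 0.69 in the S phase group and 1.39 in the mitosis group, against 0.01 over all genes. Every homo library was above every WT library for 23 S phase genes and all 25 mitosis genes, as it was for 24.6% of all genes. The 3 genes that were not called were the replication clamp gene Pcna, the cyclin gene Ccne2 and the topoisomerase gene Top2a.

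The replicative helicase genes Mcm2 to Mcm7 all rose, by 0.29 to 0.61 on the log2 scale. Mcm2 stood at 161, 151 and 172 CPM for WT, 201, 225 and 181 for het and 199, 211 and 214 for homo (log2 fold change of homo over WT 0.36 ± 0.08, adjusted p = 0.00878). Mcm3 was at 126, 115 and 134 CPM for WT, 167, 180.1 and 146 for het and 169, 183 and 189 for homo (0.52 ± 0.08, adjusted p = 0.00306). Mcm4 was at 112, 99.2 and 116 CPM for WT, 143, 165 and 141 for het and 149.7, 157.6 and 168 for homo (0.53 ± 0.08, adjusted p = 0.00239). For all 3 of these the het and homo libraries lay above all WT libraries. Mcm5 was at 124, 111 and 134 CPM for WT, 158.1, 192 and 145 for het and 174, 196 and 198 for homo (0.61 ± 0.11, adjusted p = 0.00541). Mcm6 was at 201, 189 and 214 CPM for WT, 240.4, 247 and 212 for het and 235, 244 and 264 for homo (0.29 ± 0.07, adjusted p = 0.0156). Mcm7 was at 81.5, 76.4 and 88.6 CPM for WT, 107, 114 and 101 for het and 109, 112 and 117 for homo (0.44 ± 0.07, adjusted p = 0.00245). The homo libraries were above WT for these too, while het replicate 3 of Mcm6 fell within the WT range. Leaving out WT replicate 1, WT replicate 2 or homo replicate 3 ended the Mcm6 call (adjusted p up to 0.0883), and leaving out WT replicate 2 ended that of Mcm2 (0.0501).

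Genes that load and fire the helicase rose further. Cdc6 and Cdt1 load the Mcm ring onto origins. Cdc6 stood at 28.5, 19.6 and 32.5 CPM for WT, 40.5, 59.5 and 39.6 for het and 50.1, 55.2 and 55.8 for homo (0.98 ± 0.20, adjusted p = 0.0102), and Cdt1 at 39.2, 37.1 and 41.7 CPM for WT, 46.2, 65.7 and 46.2 for het and 62.7, 67.7 and 73.4 for homo (0.77 ± 0.13, adjusted p = 0.00431). Mcm10, which helps to set the helicase in motion, was at 22.5, 15.8 and 30.1 CPM for WT, 35.9, 54.2 and 38.9 for het and 47.8, 53.8 and 60.6 for homo (1.23 ± 0.23, adjusted p = 0.00825). In all 3 genes WT replicate 2 was the lowest library, and no homo library reached down to WT. Cdc45 and the GINS subunits Gins1 and Gins2 complete the active helicase. Gins1 was at 7.70, 8.32 and 11.1 CPM for WT, 13.6, 19.4 and 11.8 for het and 17.2, 21.0 and 19.7 for homo (1.07 ± 0.20, adjusted p = 0.00500). Gins2 rose by 0.73 ± 0.17 and Cdc45 by 0.81 ± 0.20 on the log2 scale, and in both the het libraries overlapped the WT ones.

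The enzymes that make DNA and its precursors rose, except for Pcna. Pola1 and Prim1, subunits of the polymerase that lays down primers, rose by 0.93 ± 0.20 and 0.65 ± 0.16 on the log2 scale. Rrm1 and Rrm2, the large and small subunits of ribonucleotide reductase, rose as well. Rrm1 stood at 129, 112 and 157 CPM for WT, 169.5, 197 and 163 for het and 202, 202 and 210.0 for homo (0.61 ± 0.11, adjusted p = 0.00582). Rrm2 was at 62.1, 44.3 and 77.9 CPM for WT, 104, 117 and 89.95 for het and 107, 109.6 and 120.3 for homo (0.86 ± 0.18, adjusted p = 0.0145). The homo libraries of both lay above WT. Tyms, the thymidylate synthase gene, was at 21.0, 21.0 and 22.7 CPM for WT, 30.0, 42.1 and 29.8 for het and 37.1, 38.2 and 41.7 for homo (0.84 ± 0.13, adjusted p = 0.00276). Tk1, the thymidine kinase gene of the salvage route, was at 34.9, 37.6 and 39.2 CPM for WT, 48.6, 53.8 and 41.4 for het and 53.9, 50.8 and 54.0 for homo (0.49 ± 0.09, adjusted p = 0.00575). For these 2 the WT libraries were nearly equal and all het and homo libraries lay above them. Pcna, the clamp that holds polymerases on DNA, went against its group at 58.2, 50.3 and 57.8 CPM for WT, 65.6, 54.0 and 50.7 for het and 49.7, 50.5 and 51.0 for homo (−0.15 ± 0.09, adjusted p = 0.279). Its 3 homo values were nearly equal, at the low end of the WT range or just below it, and with library size as a covariate the Pcna difference changed sign to 0.056.

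Among the regulators of S phase entry, Ccne1 had the largest change of its group. The cyclin E genes Ccne1 and Ccne2 encode partners of Cdk2. Ccne1 stood at 9.58, 9.32 and 13.5 CPM for WT, 17.3, 26.7 and 19.9 for het and 22.2, 29.7 and 29.2 for homo (1.30 ± 0.20, adjusted p = 0.00294), and every het and homo library was above WT. Ccne2 was at 14.1, 9.49 and 12.6 CPM for WT, 12.9, 24.3 and 17.6 for het and 17.0, 19.6 and 19.1 for homo (0.61 ± 0.21, adjusted p = 0.0545). Its homo libraries were above WT, and het replicate 1 lay inside the WT range. The activating E2F genes differed in size: E2f1 was at 62.9, 55.6 and 67.4 CPM for WT, 68.5, 86.4 and 70.3 for het and 78.6, 74.6 and 77.9 for homo (0.30 ± 0.09, adjusted p = 0.0356) and E2f2 at 42.2, 37.6 and 58.7 CPM for WT, 67.6, 91.7 and 57.9 for het and 86.8, 84.5 and 102 for homo (0.96 ± 0.21, adjusted p = 0.0164). The E2f1 difference was small, and het replicate 3 of E2f2 lay just under the highest WT library. Uhrf1, which helps to copy DNA methylation after replication, was at 82.8, 72.9 and 95.9 CPM for WT, 131, 155 and 105 for het and 135, 152 and 157 for homo (0.81 ± 0.15, adjusted p = 0.00877). Its homo and het libraries were all above WT. The E2f1 call was kept when WT replicate 3 was left out and lost for each of the other 5 libraries (adjusted p up to 0.145). That of Cdc45 was lost for WT replicates 1 and 2 and homo replicates 2 and 3 (up to 0.0876), and those of E2f2 (up to 0.0647) and Rrm2 (up to 0.0542) for WT replicate 1 and homo replicate 3.

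**Figure D3:**
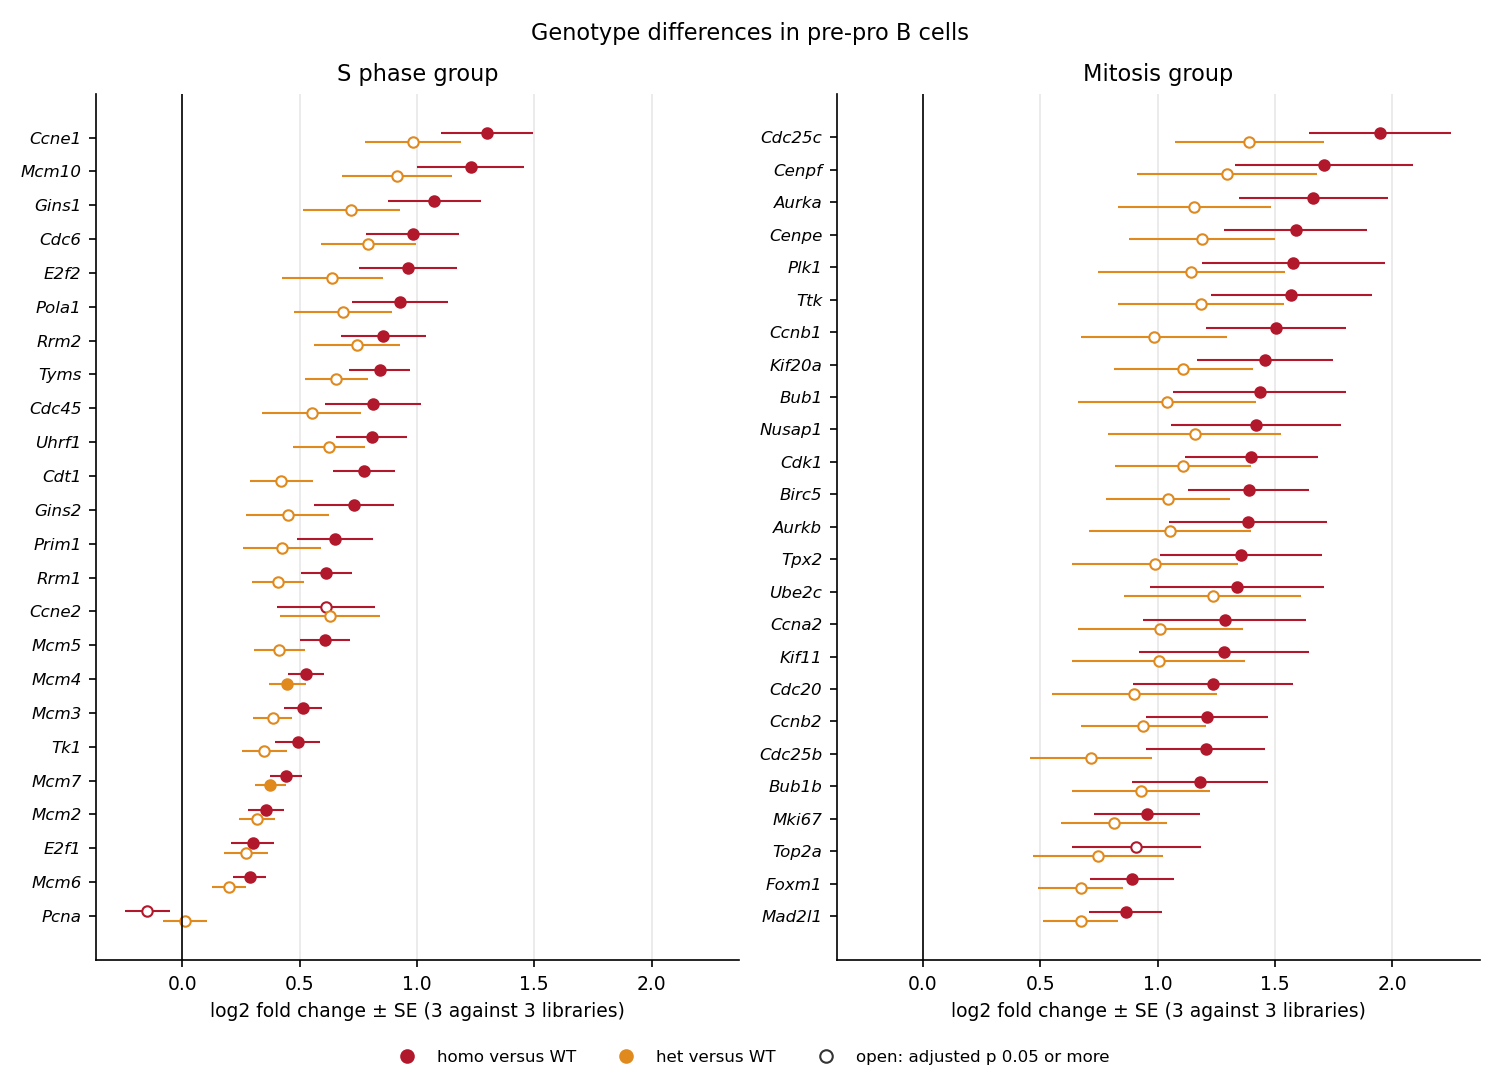
Log2 fold change ± SE of each gene in pre-pro B cells, homo over WT in red and het over WT in orange, for the S phase group (left) and the mitosis group (right), with filled points for an adjusted p under 0.05. Nearly all homo points are filled and lie above 0, the het points lie at smaller values and only Mcm4 and Mcm7 are filled, and Pcna sits at −0.15 and 0.01.

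The kinase that drives mitosis and its partners rose together. Cdk1 stood at 23.1, 12.5 and 32.9 CPM for WT, 43.3, 61.0 and 43.6 for het and 61.8, 58.3 and 62.6 for homo (1.40 ± 0.28, adjusted p = 0.0137). Ccna2, cyclin A2, was at 50.1, 28.3 and 91.6 CPM for WT, 107, 136 and 103 for het and 143, 139 and 139 for homo (1.28 ± 0.35, adjusted p = 0.0392). For Cdk1 every het library lay above WT replicate 3, the highest WT library, and the same holds for Ccna2. Ccnb1 and Ccnb2 encode the mitotic B cyclins. Ccnb1 was at 6.01, 4.50 and 13.1 CPM for WT, 14.4, 19.3 and 13.6 for het and 22.0, 24.1 and 22.4 for homo (1.5 ± 0.30, adjusted p = 0.00886), and Ccnb2 at 30.6, 26.1 and 56.7 CPM for WT, 66.5, 88.4 and 64.6 for het and 90.6, 87.2 and 88.5 for homo (1.21 ± 0.26, adjusted p = 0.0169). Both showed the order of WT libraries seen in the whole group, with replicate 2 lowest and replicate 3 highest. Cdc25b and Cdc25c are phosphatases that switch Cdk1 on. Cdc25b was at 33.2, 24.5 and 52.0 CPM for WT, 57.3, 74.6 and 49.5 for het and 85.1, 81.2 and 89.96 for homo (1.2 ± 0.25, adjusted p = 0.0153). Cdc25c was at 6.01, 3.0 and 10.1 CPM for WT, 16.0, 20.2 and 14.6 for het and 26.8, 27.3 and 21.1 for homo (1.95 ± 0.30, adjusted p = 0.00385). Cdc25c had the largest change of all 49 genes, and Cdc25b was the mitosis gene for which het replicate 3 fell within the WT range. Foxm1, a transcription factor for mitosis genes, was at 89.4, 78.4 and 129 CPM for WT, 143, 188 and 144 for het and 182, 191 and 184 for homo (0.89 ± 0.18, adjusted p = 0.0135).

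The mitotic kinases behaved alike. Aurka builds spindle poles, and stood at 16.7, 9.66 and 27.1 CPM for WT, 33.0, 52.2 and 34.1 for het and 59.3, 57.9 and 54.9 for homo (1.66 ± 0.32, adjusted p = 0.0111). Aurkb corrects faulty attachments of chromosomes to the spindle, and was at 28.4, 18.6 and 56.5 CPM for WT, 67.6, 87.0 and 62.5 for het and 88.6, 93.4 and 93.3 for homo (1.39 ± 0.34, adjusted p = 0.0273). Plk1, which acts from mitotic entry to division, was at 21.0, 11.3 and 39.7 CPM for WT, 40.9, 71.1 and 47.4 for het and 76.2, 73.7 and 69.2 for homo (1.58 ± 0.39, adjusted p = 0.0281). In all 3 the homo libraries lay close together, while the WT libraries were spread widely, with replicate 2 lowest and replicate 3 highest. Birc5, a partner of Aurkb, rose by 1.39 ± 0.26 and Tpx2, an activator of Aurka, by 1.35 ± 0.34 on the log2 scale. The spindle checkpoint genes Ttk (1.57 ± 0.34), Bub1 (1.43 ± 0.37), Bub1b (1.18 ± 0.29) and Mad2l1 (0.86 ± 0.16) all rose, and Mad2l1 had the smallest change of the mitosis group.

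Cdc20 and Ube2c serve the anaphase promoting complex, the ubiquitin ligase that ends mitosis, as its activator and its ubiquitin-carrying enzyme. Cdc20 stood at 26.7, 15.5 and 48.0 CPM for WT, 50.1, 70.6 and 48.7 for het and 71.4, 70.0 and 73.9 for homo (1.24 ± 0.34, adjusted p = 0.0404). Ube2c rose by 1.34 ± 0.37 on the log2 scale. In both all het and homo libraries lay above WT. Of the kinetochore and spindle genes, Cenpf had the second largest change of the group (1.71 ± 0.38, adjusted p = 0.0225), followed by Aurka and the kinetochore motor gene Cenpe (1.59 ± 0.31). The spindle motor genes Kif11 (1.28 ± 0.36) and Kif20a (1.46 ± 0.29) and the microtubule binder Nusap1 (1.42 ± 0.36) rose as well. Mki67 encodes the Ki-67 protein that coats mitotic chromosomes, and stood at 378, 274 and 569 CPM for WT, 693, 819.8 and 649 for het and 803, 778 and 805 for homo (0.96 ± 0.23, adjusted p = 0.0210). Top2a, the topoisomerase that untangles sister chromosomes, was at 261, 157.7 and 383 CPM for WT, 448, 503 and 401 for het and 507, 496 and 516 for homo (0.91 ± 0.28, adjusted p = 0.0532). The Top2a libraries did not overlap between homo and WT although the test missed its threshold. Leaving out WT replicate 1 or any 1 homo library ended the calls of Ccna2 (adjusted p up to 0.117), Cdc20 (0.123), Plk1 (0.093), Aurkb (0.0932), Mki67 (0.0699) and Cenpf (0.0718). Leaving out WT replicate 1 ended those of Cdk1 (0.0527), Foxm1 (0.0515) and Cdc25b (0.0618), the last also for homo replicate 3, while those of Cdc25c, Aurka and Ccnb1 held in all 6 cases.

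Several measures moved with these pre-pro B differences, and their part in them was not tested. The 14 NK and innate lymphoid markers summed to 134 to 145 CPM in WT, 241 to 378 in het and 313 to 516 in homo, with none at 0 and 13 of 14 higher in homo than WT. The 13 myeloid progenitor markers summed to 204 to 233, 202 to 268 and 296 to 366 CPM, with Cebpe at 0 in WT and 7 of 10 tested higher in homo. The 15 plasmacytoid dendritic cell markers summed to 7778 to 8768, 6173 to 9225 and 5935 to 6152 CPM, with 7 lower in homo. The 10 abundant reference genes, Actb among them, summed to 1032 to 1181, 808 to 1288 and 793 to 816 CPM, with a median log2 difference of −0.45 in homo and 2 called lower. Over all genes tested 12.0% were called higher and 10.4% lower in homo. Het replicate 1, less deep than any WT library at 4683715 gene counts, had a mitosis level of 6.19, above the 5.96 of the highest WT library. Homo replicate 2, the XX homo library, stood at 6.69, as did the XY homo libraries at 6.69 and 6.70. Among het libraries the order went the other way. Het replicate 2, the XY and deepest het library at 8771793 gene counts, stood at 6.64, above the XX het libraries at 6.19 and 6.18. With library size as a covariate 1 of the 49 genes was called (mitosis median 1.14), and with sex as a term 11 were (1.26). Leaving out WT replicate 1, homo replicate 2 or homo replicate 3 gave 19, 27 and 24. The median of the mitosis group stayed between 1.08 and 1.86 over all 6 cases of a library left out. Shares of all genes called under these settings are not given here, so the counts do not set the 49 genes apart from other genes.

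**Figure D4:**
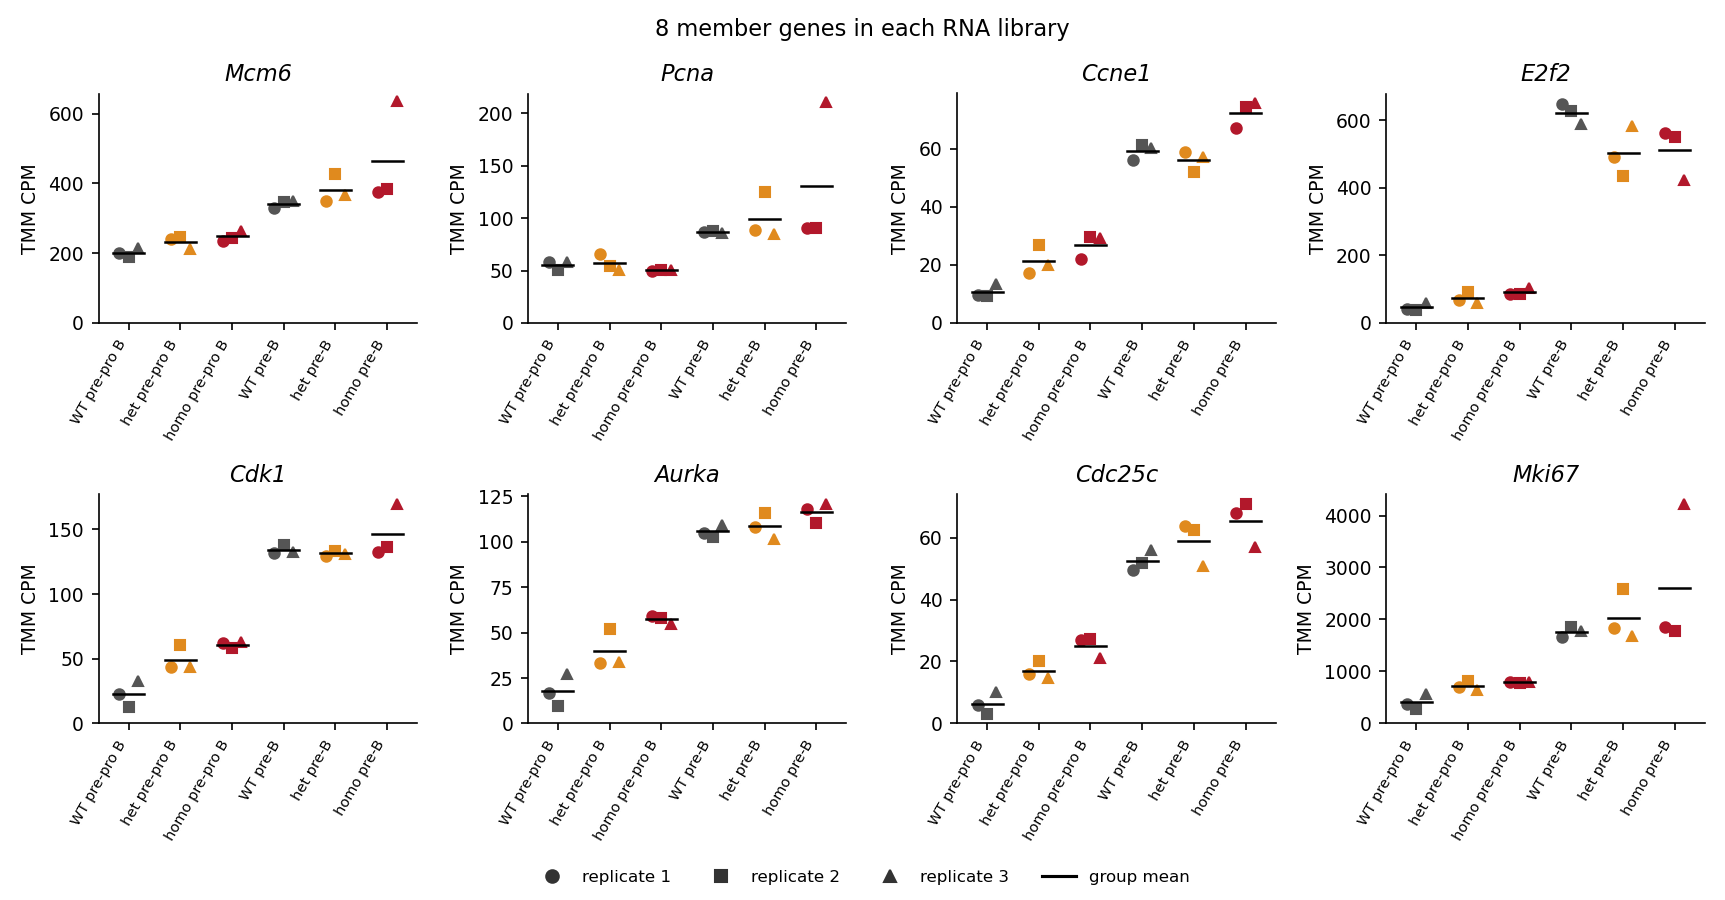
CPM of 8 of the genes in each RNA library (vertical axis from 0), with circles, squares and triangles for replicates 1, 2 and 3 and lines at group means. Ccne1, Cdk1, Aurka and Cdc25c rise from WT to homo in pre-pro B cells, Pcna does not, and homo pre-B replicate 3 stands far above the others for Mcm6, Pcna and Mki67.

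Het pre-pro B cells leaned the same way, but few of these genes passed the test. In S phase 2 of 24 genes rose, Mcm4 (0.45 ± 0.08, adjusted p = 0.0361) and Mcm7 (0.38 ± 0.07, adjusted p = 0.0367), and in mitosis 0 of 25, where 0.435% of all genes tested rose. Before adjustment edgeR's p was under 0.05 for 23 S phase genes and all 25 mitosis genes, while DESeq2 gave 14 and 12 calls. Over all genes p was under 0.05 for 2505 of 12188, and DESeq2 called 380 of 17843 higher. Median log2 fold changes were 0.45 and 1.04, against 0.003 over all genes. The largest were those of Cdc25c (1.39 ± 0.32, adjusted p = 0.0690), Cenpf (1.30 ± 0.38, adjusted p = 0.128) and Ube2c (1.23 ± 0.38) in mitosis and of Ccne1 (0.98 ± 0.20, adjusted p = 0.0558), Mcm10 (0.92 ± 0.23) and Cdc6 (0.79 ± 0.20) in S phase. The smallest were those of Foxm1 (0.67 ± 0.18), Mad2l1 (0.67 ± 0.16), Pcna (0.01 ± 0.10) and Mcm6 (0.20 ± 0.07). Every het library was above every WT library for 17 S phase and 24 mitosis genes, as it was for 13.1% of all genes. The number of these genes called rested on single libraries: 37 were called when WT replicate 3 was left out, 15 for het replicate 1, 7 for het replicate 3 and 0 for WT replicate 1, WT replicate 2 or het replicate 2. How many of all genes were called in those cases is not given here.

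The homo and het pre-pro B libraries were not told apart by the test for these genes. None of the 49 was called by edgeR or by DESeq2, where edgeR called 0.0164% of all genes in either direction. Before adjustment edgeR's p was under 0.05 for 1 S phase gene and 0 mitosis genes. The share of all genes at that unadjusted threshold is not given here. The median difference of homo over het was 0.19 in S phase and 0.33 in mitosis on the log2 scale. Cdc25c (0.56 ± 0.26), Ccnb1 (0.52 ± 0.26) and Aurka (0.51 ± 0.28) had the largest differences in mitosis, and Gins1 (0.35 ± 0.18), Cdt1 (0.35 ± 0.13) and E2f2 (0.32 ± 0.20) those in S phase. Pcna was lower in homo (−0.16 ± 0.09) and Ccne2 nearly even (−0.02 ± 0.19), and the smallest differences in mitosis were those of Ube2c (0.10 ± 0.34) and Mki67 (0.14 ± 0.22). All homo libraries lay above all het libraries for 10 mitosis genes and for Rrm1 in S phase, against 9.59% of all genes. Comparisons of het and of homo with WT share the 3 WT libraries, so their values are given side by side and not as independent results. Without het replicate 2, 1 gene was called and the mitosis median was 0.50, with the share of all genes called not given here.

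In pre-B cells the difference between homo and WT was small for most of these genes. By the same edgeR test over 11411 genes, 2 of 24 S phase genes rose, Tyms (0.62 ± 0.11, adjusted p = 0.00331) and Cdc45 (0.47 ± 0.11, adjusted p = 0.0196), and 2 of 25 mitosis genes, Ccnb1 (0.77 ± 0.22, adjusted p = 0.0424) and Aurkb (0.36 ± 0.10, adjusted p = 0.0316), where 7.42% of all genes rose. Both shares of called genes were near that of all genes. The group medians were 0.35 and 0.38, against 0.02 over all genes. The 10 abundant reference genes had a median of 0.45, with all 10 above 0, and their summed CPM was 2522 in homo replicate 3 against 1061 to 1115 in the other homo and the WT libraries. Called higher, too, were 2 of 3 NK and 3 of 4 stem and progenitor markers tested, with sums of 12.9 to 13.6 (WT) and 32.0 to 40.9 CPM (homo) over 14 NK markers, 5 of them at 0 in WT, and of 18.4 to 23.0 and 31.1 to 45.2 CPM over 9 stem and progenitor markers. The part of these in the result was not tested. Every homo library was above every WT library for 18 S phase and 21 mitosis genes, as it was for 20.3% of all genes. Without homo replicate 3 the medians were 0.20 and 0.16, and 6 genes were called. Without that library and het replicate 2, the other shallow library, 18 were called, and without any 1 WT library 1 was. Shares of all genes called without these libraries are not given here.

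Tyms stood at 47.9, 49.1 and 50.9 CPM for WT, 66.7, 70.1 and 66.7 for het and 74.8, 70.4 and 82.9 for homo. Cdc45 was at 98.1, 107 and 109 CPM for WT, 115, 123 and 119.7 for het and 132, 136 and 169 for homo. For both genes every het and homo library lay above every WT library, and Tyms was also called in het over WT. Ccnb1 was at 45.2, 47.6 and 49.3 CPM for WT, 63.0, 68.8 and 55.8 for het and 64.5, 64.2 and 120.2 for homo, and Aurkb at 176, 179.7 and 178 CPM for WT, 183, 166 and 191 for het and 224, 217 and 247 for homo. For Ccnb1 homo replicate 3 stood far above the other homo libraries, and its call was lost without any 1 of the 3 WT libraries (adjusted p 0.107 to 0.142). Besides Ccnb1 and Gins1 (0.66 ± 0.21), large differences were those of Nusap1 (0.68 ± 0.30) and Kif11 (0.62 ± 0.27) in mitosis and of Pcna (0.55 ± 0.30) in S phase. Values near 0 were those of Uhrf1 (0.06 ± 0.13), Cdk1 (0.12 ± 0.11) and Aurka (0.14 ± 0.10).

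E2f2, Gins2 and E2f1 went against their group in homo over WT pre-B cells. E2f2 stood at 648, 625 and 587 CPM for WT, 489.5, 434 and 581 for het and 561, 549.7 and 424 for homo, and every het and homo library lay below every WT library, as for 22.3% of all genes in homo and 16.2% in het. The difference did not pass the test (−0.27 ± 0.15, adjusted p = 0.266 for homo and −0.31 ± 0.15, adjusted p = 0.305 for het). E2f1 was at 99.7, 93.5 and 88.5 CPM for WT, 82.1, 66.1 and 105 for het and 102, 109 and 60.1 for homo, and Gins2 at 41.1, 40.5 and 41.9 CPM for WT, 30.1, 20.0 and 44.0 for het and 39.0, 45.2 and 22.2 for homo. In both genes homo replicate 3 and het replicate 2 were the lowest of all pre-B libraries, and the groups overlapped (−0.03 ± 0.22, adjusted p = 0.952 for E2f1 and −0.16 ± 0.29, adjusted p = 0.745 for Gins2 in homo).

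Replicate 3 of homo decided the level of many genes. Pcna was at 87.3, 87.8 and 85.6 CPM for WT, 88.7, 125 and 84.7 for het and 90.7, 90.9 and 211 for homo. Mki67 was at 1659.9, 1859 and 1774 CPM for WT, 1837, 2588 and 1682 for het and 1848, 1777 and 4217 for homo. Top2a was at 971, 1025 and 957 CPM for WT, 1016, 1405 and 983 for het and 1063, 1015 and 2393 for homo. In each the third homo library was more than 2 times the other homo libraries, and het replicate 2 stood out in the same direction. Mcm6 was at 331, 346 and 349 CPM for WT, 349, 426 and 366 for het and 376, 383 and 635 for homo. Rrm1 was at 368, 387 and 377 CPM for WT, 407, 515 and 396 for het and 425, 435 and 734 for homo. Ccna2 was at 298, 326 and 321 CPM for WT, 332, 433 and 327 for het and 345, 349 and 643 for homo. These 3 genes, too, were highest in homo replicate 3 and in the second het library. Cdc6 was at 96.5, 97.4 and 97.5 CPM for WT, 99.9, 94.7 and 112 for het and 126, 136 and 103 for homo. Cdt1 was at 111, 106 and 107 CPM for WT, 109, 84.6 and 124 for het and 119.7, 132 and 98.0 for homo. Tk1 was at 40.9, 42.6 and 44.6 CPM for WT, 43.6, 32.6 and 47.1 for het and 55.5, 63.1 and 49.3 for homo. For loading factors and thymidine kinase, in contrast, the third homo library was the lowest of its group. As a share of their mean count in homo replicates 1 and 2, the counts in replicate 3 were highest for Mki67 (60.6%), Pcna (60.5%) and Top2a (60%) and lowest for Gins2 (13.7%), E2f1 (14.8%), E2f2 (19.9%) and Cdt1 (20.2%).

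None of the remaining helicase and precursor genes was called between pre-B genotypes. Mcm2 stood at 307, 323 and 317 CPM for WT, 333, 295 and 362 for het and 375, 397 and 385 for homo. Mcm3 was at 279, 291 and 289 CPM for WT, 297, 314 and 315 for het and 328, 334 and 439 for homo. Mcm4 was at 276, 287 and 284 CPM for WT, 309, 348 and 299.7 for het and 320.0, 330.0 and 483 for homo. For all 3 every homo library was above every WT library. Mcm5 was at 291, 274 and 267 CPM for WT, 263, 268 and 310.4 for het and 319, 320.3 and 344 for homo. Mcm7 was at 200.4, 212 and 203 CPM for WT, 198, 214 and 200.4 for het and 219, 226 and 284 for homo. Mcm10 was at 126, 129 and 133 CPM for WT, 139, 137 and 148 for het and 145, 162 and 162 for homo. Homo libraries were above WT here too, and none of the 6 passed the test. Rrm2 was at 271, 266 and 258 CPM for WT, 258, 312 and 259.6 for het and 265, 265 and 448 for homo. Uhrf1 was at 330.2, 335 and 313 CPM for WT, 276, 290.1 and 323 for het and 305, 318 and 401 for homo. The libraries of both overlapped between homo and WT. Ccne1 was at 56.1, 61.3 and 60.4 CPM for WT, 58.8, 52.0 and 57.2 for het and 67.1, 74.6 and 75.7 for homo. Ccne2 was at 55.9, 69.3 and 59.9 CPM for WT, 70.4, 100.1 and 68.3 for het and 71.2, 80.6 and 106 for homo. Homo lay above WT for both cyclin E genes, by margins that missed the test.

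Most of the mitotic regulators given here were somewhat higher in homo than in WT pre-B cells, but none of these was called. Cdk1 stood at 132, 138 and 133 CPM for WT, 129, 133 and 131 for het and 133, 136 and 169 for homo. Cdc20 was at 146, 153 and 149 CPM for WT, 143, 131 and 155 for het and 175, 161 and 155 for homo. Aurka was at 105, 103 and 109 CPM for WT, 108, 116 and 102 for het and 118, 111 and 121 for homo. The Cdk1 libraries overlapped, and those of Cdc20 and Aurka were a little higher in homo. Plk1 was at 145, 159 and 161 CPM for WT, 153, 146 and 169 for het and 191, 188 and 171 for homo. Ccnb2 was at 155, 173 and 174 CPM for WT, 181, 219 and 176 for het and 188, 185 and 337 for homo. Foxm1 was at 355, 381 and 377 CPM for WT, 405, 349 and 395 for het and 438, 427 and 418 for homo. Homo libraries lay above WT for these, by margins that did not pass the test. Cdc25b was at 388, 399 and 379 CPM for WT, 380.1, 362 and 394 for het and 425, 409 and 452 for homo. Cdc25c was at 49.4, 51.9 and 55.9 CPM for WT, 63.9, 62.4 and 50.8 for het and 68.0, 70.7 and 57.1 for homo. For both phosphatase genes homo was above WT, and het overlapped it.

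For het over WT in pre-B cells, Tyms rose (0.45 ± 0.11, adjusted p = 0.0321) as 1 of 24 S phase genes, where 2.80% of all genes rose, and that call was lost when any of the 6 libraries was left out (adjusted p 0.0523 to 0.156). None of the 25 mitosis genes was called by edgeR or DESeq2, and none had an unadjusted p under 0.05. The medians were 0.08 and 0.19. Between homo and het pre-B cells edgeR called 0 of 49, where it called 1.89% of all genes in either direction. Before adjustment edgeR's p was under 0.05 for 4 S phase and 3 mitosis genes, and DESeq2 gave 1 call. The shares of all genes for these other counts are not given here. Homo was above het in all libraries for 8 S phase and 7 mitosis genes, against 6.79% of all genes. The largest differences were those of Tk1 (0.46 ± 0.16) and Ccne1 (0.37 ± 0.11) in S phase and of Top2a (0.40 ± 0.30) and Ccnb1 (0.38 ± 0.22) in mitosis.

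The largest differences of these genes were those between pre-pro B and pre-B cells. The gates also differed in their marker levels, as given above. A difference in cell makeup cannot be told apart here from a change along the lineage. In WT, by a fit of all 18 libraries over 12440 genes, 23 of 24 S phase genes and all 25 mitosis genes rose, where 31.0% of all genes rose. Medians were 1.58 and 2.55 on the log2 scale, against −0.01 over all genes. E2f2 had the largest change of all (3.74 ± 0.19, adjusted p = 1.21e-11), a 13.4-fold rise, followed in S phase by Mcm10 (2.50 ± 0.18) and Ccne1 (2.44 ± 0.17). In mitosis Cdc25b (3.40 ± 0.19, adjusted p = 5.18e-11), Cenpf (3.08 ± 0.33) and Ttk (3.05 ± 0.28) led, and Top2a (1.88 ± 0.30) and Mad2l1 (1.77 ± 0.24) changed least. Tk1 was not called (0.20 ± 0.13, adjusted p = 0.204), and E2f1 (0.60 ± 0.18, adjusted p = 0.00630) and Pcna (0.65 ± 0.24, adjusted p = 0.0238) were the smallest changes that passed. Every WT pre-B library was above every WT pre-pro B library for all 49 genes, as for 39.4% of all genes.

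The same comparison of stages had lower medians in het and homo cells. In het 22 S phase and 25 mitosis genes rose (32.4% of all genes), with medians of 1.11 and 1.54, and in homo 22 and 25 (32.7% of all genes), with medians of 1.22 and 1.44. Tk1 and E2f1 did not pass in either, with −0.21 ± 0.13 in het and 0.10 ± 0.13 in homo for Tk1 and 0.17 ± 0.17 and 0.27 ± 0.17 for E2f1. E2f2 (2.79 ± 0.18 and 2.49 ± 0.18), Ccne2 (2.08 ± 0.21 and 2.18 ± 0.21) and Cdc25b (2.64 ± 0.19 and 2.33 ± 0.18) had large changes in both. Pcna (1.31 ± 0.24) and Mcm6 (0.90 ± 0.15, against 0.76 ± 0.15 in WT) were the genes with a larger rise in homo than in WT. Homo pre-B replicate 3 was the highest library of both. Leaving out single libraries left 46 to 48 of the 49 called within each genotype, with the shares of all genes in these cases not given here.

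**Figure D5:**
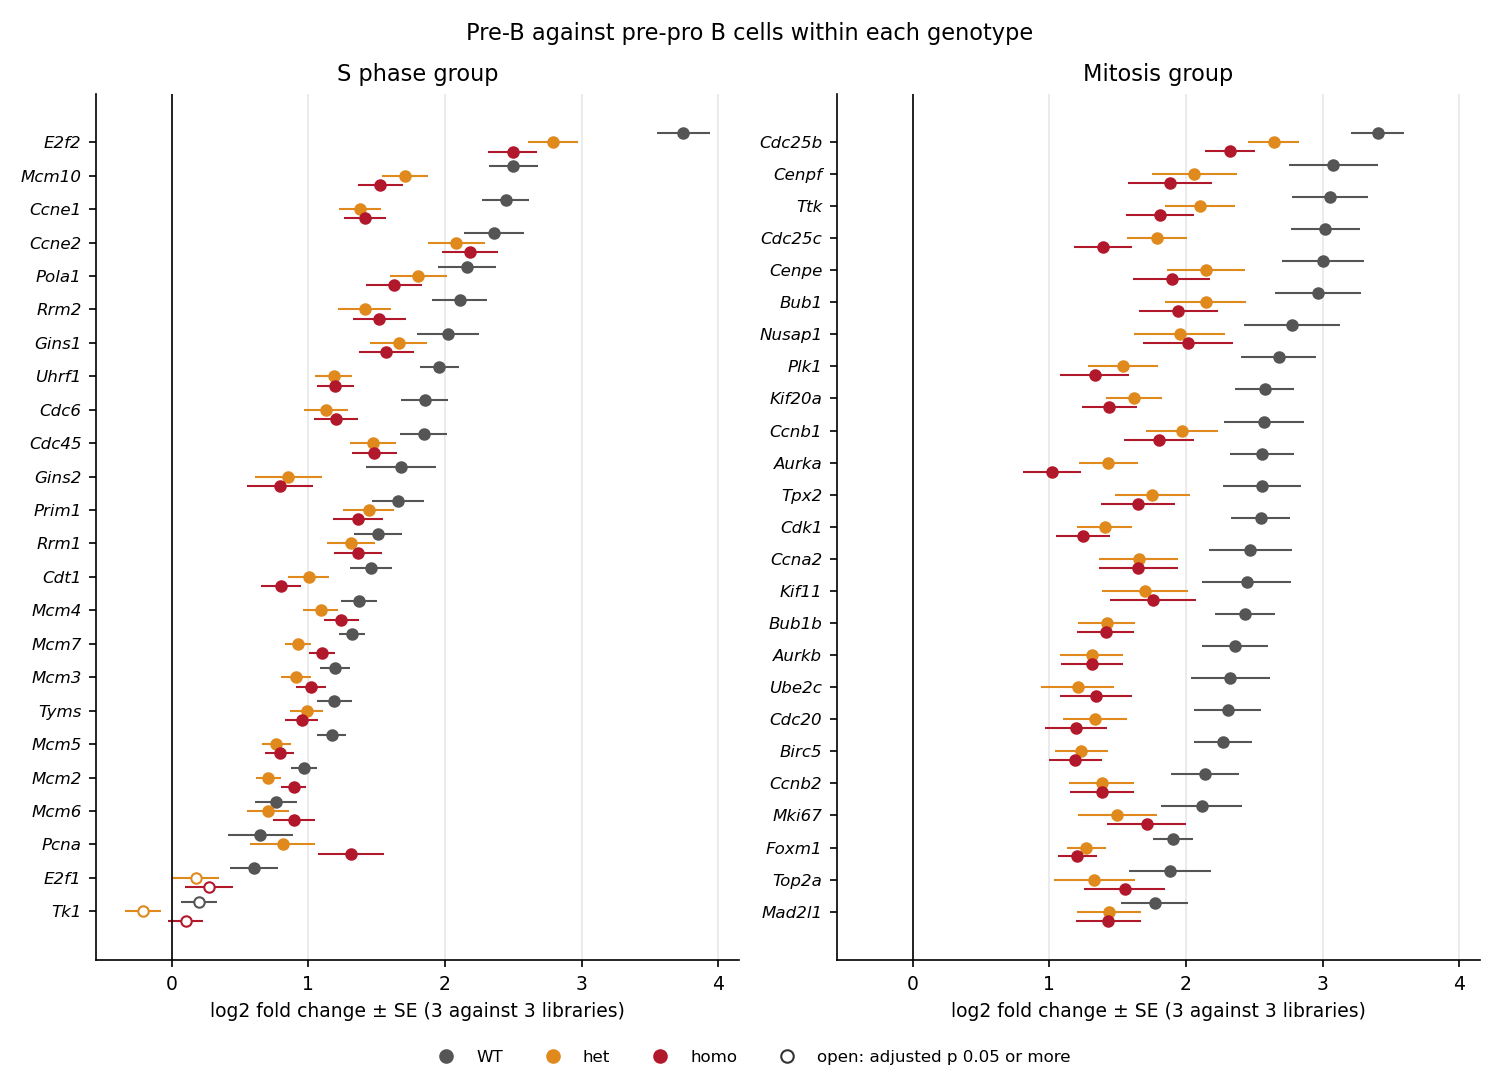
Log2 fold change ± SE of pre-B over pre-pro B cells for each gene, in WT (grey), het (orange) and homo (red), for the S phase group (left) and the mitosis group (right), with open points for an adjusted p of 0.05 or more. In the mitosis group the grey points lie to the right of the others for all 25 genes, and E2f2 and Cdc25b have the largest WT changes at 3.74 and 3.40.

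Whether the genotype difference itself changed between stages was tested as an interaction. The log2 difference of homo over WT was lower in pre-B than in pre-pro B cells for 5 of 24 S phase genes (Ccne1, Cdt1, E2f2, Mcm10 and Uhrf1) and 12 of 25 mitosis genes, where 9.37% of all genes were lower in this sense. For E2f2 the difference changed sign, from 0.96 in pre-pro B cells to −0.27 in pre-B cells in the fits within a stage. Medians were −0.34 and −1.02. Cdc25c (−1.63 ± 0.33, adjusted p = 0.00254), Aurka (−1.54 ± 0.31, adjusted p = 0.00249) and Plk1 (−1.35 ± 0.37, adjusted p = 0.0187) led in mitosis and E2f2 (−1.25 ± 0.25, adjusted p = 0.00216) in S phase. The values of Top2a (−0.33 ± 0.41), Mad2l1 (−0.34 ± 0.33) and Mcm2 (−0.08 ± 0.13) were nearer 0, and those of Pcna (0.66 ± 0.34, adjusted p = 0.213) and Mcm6 (0.13 ± 0.21) had the opposite sign and did not pass the test. For het over WT 3 S phase genes (Ccne1, E2f2 and Uhrf1) and 4 mitosis genes (Aurka, Birc5, Cdc25c and Cdk1) were lower, where 3.80% of all genes were, with medians of −0.38 and −0.86. These contrasts share the WT libraries at both stages. Leaving out a library moved the homo count between 10 and 31, with 10 without WT pre-pro B replicate 1, 11 without WT pre-B replicate 2 or 3, 27 without WT pre-pro B replicate 3 and 31 without homo pre-B replicate 3. The het count moved between 1 and 24, with 24 without WT pre-pro B replicate 3, 2 without WT pre-pro B replicate 2 or WT pre-B replicate 3, and 1 without WT pre-pro B replicate 1, het pre-pro B replicate 2, WT pre-B replicate 1 or 2 or het pre-B replicate 1. For both counts the share of all genes in each case is not given here.

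Other genes of the same pathways were counted from lists drawn up by function, with earlier results of these data known. In homo over WT pre-pro B cells 35 of 42 other replication genes rose (median 0.66), where 12.0% of all genes rose and 10.4% fell, led by Ticrr (1.59 ± 0.29), which helps to fire origins, and Clspn (1.26 ± 0.18), an adaptor of the replication checkpoint. Of 47 other mitosis genes 45 rose and 1 fell (median 1.35), led by the kinesin genes Kif14 (1.88 ± 0.33) and Kif2c (1.85 ± 0.40). The gene that fell was Pttg1, which encodes securin, the inhibitor of separase (−0.35 ± 0.10, adjusted p = 0.0263). Of 15 E2F and pocket protein genes 9 rose and 1 fell: the cell cycle repressors E2f7 (1.2 ± 0.32) and E2f8 (1.16 ± 0.26) led, and E2f4, a partner of pocket proteins in resting cells, fell (−0.35 ± 0.05, adjusted p = 0.00239). Of 14 subunits of the anaphase promoting complex, the ligase that Cdc20 activates, 3 rose, with a median of 0.04. E2f4 and Pttg1 were named after their values were seen.

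The same lists were counted in the other comparisons. In WT pre-B over pre-pro B cells 41 of 42 replication genes (median 1.58), 46 of 47 mitosis genes (2.39), 11 of 15 E2F and pocket protein genes (0.88) and 5 of 14 anaphase promoting complex subunits (0.24) rose, while 1 E2F or pocket protein gene and 2 subunits fell. Over all genes 31.0% rose, so the share of subunits that rose was near that of all genes. In homo over WT pre-B cells 6 of 42 replication genes (median 0.35) and 4 of 47 mitosis genes (0.36) rose, the latter near the 7.42% of all genes. In het pre-pro B cells 2 of 42 replication genes rose (0.435% of all genes), with medians of 0.47 for replication and 0.94 for mitosis genes. In the homo interaction 10 of 42 replication and 20 of 47 mitosis genes were lower in pre-B cells (9.37% of all genes), with medians of −0.33 and −1.0.

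The deposited peak lists place Ikaros and Aiolos regions beside these genes. Chromatin immunoprecipitation with sequencing was done with antibodies to Ikaros and to Aiolos in WT and homo thymocytes and in pre-B cells grown in culture on Tst-4 stroma with IL-7, SCF and Flt3L, with a single library (1) for each combination, so that nothing could be tested. The regions, folds and their calls are the authors'. In the Ikaros lists a region overlapped a gene or lay within 1 kb of it for 1 of the 49 genes in WT pre-B cells (2.04%, against 7.09% of 23389 genes with a position), 7 in homo pre-B cells (14.3% against 15.5%), 6 in WT thymocytes (12.2% against 7.97%) and 17 in homo thymocytes (34.7% against 22.8%). Within 10 kb the same 4 lists gave 6 (12.2% against 11.2%), 14 (28.6% against 23.8%), 8 (16.3% against 11.6%) and 21 genes (42.9% against 29.9%). The homo lists were also longer over the whole genome, with 8609 regions against 3683 in pre-B cells and 8221 against 3572 in thymocytes.

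Cdc20 was the gene with a region in all 4 Ikaros lists. The region lay at chr4:118437348-118438123 in WT pre-B cells (fold 17.2), chr4:118437327-118438166 in homo pre-B cells (20.7), chr4:118437280-118438274 in WT thymocytes (15.8) and chr4:118437288-118438259 in homo thymocytes (19.6) on mm10. Each covers part or all of the Cdc20 promoter printed above, with its midpoint 392 to 434 bases upstream of the start site. Cdk1 had a region over its promoter in homo pre-B cells (fold 5.05) and homo thymocytes (4.18), with midpoints 108 and 132 bases upstream of the start. Bub1b (4.57 and 5.95), Mad2l1 (3.62 and 6.78) and E2f2 (3.69 and 4.75) likewise had regions in both homo lists and in neither WT list, the E2f2 region within the gene. Cdc25b had a region within the gene in homo pre-B cells (4.50), WT thymocytes (6.83) and homo thymocytes (4.60). Mcm3 and Pcna had regions at or near their start sites in thymocytes of both genotypes, with folds of 4.82 and 6.10 for Mcm3 and 4.12 and 5.0 for Pcna, as did Plk1 (3.97 and 4.03). The Aiolos lists were short, with 431 regions in WT pre-B cells and 24 to 184 in the others, and they held 1 region near these genes, within Cdc25c in WT pre-B cells (fold 3.83).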

How the data were processed

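RNA was sequenced after poly(A) selection with a NEBNext Ultra kit, per the labels' protocols. The authors deposited raw counts per gene for each of 18 libraries. STAR 2.7.0, HISAT2 2.1.0, MACS2 2.1.1 and the build mm10 are listed per the submitters' processing notes, without saying which tool made the counts. The 5 entries naming no gene were kept out: the no-feature entry held 29.85% to 40.15% of each library and the ambiguous one 0.73% to 0.8824%. No column of values was left unused (0). In the peak lists the authors' score, fold enrichment, −log10 p-value and −log10 q-value are given per region, per the labels for broad regions. The score was not used.

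Genes were filtered by filterByExpr, scaled by TMM and tested with edgeR 4.0.16 (R 4.3.3, limma 3.58.1) by the robust quasi-likelihood F test, two-sided, with Benjamini-Hochberg adjustment over all genes tested and a threshold of 0.05. Genotypes were compared within a stage over its 9 libraries, and stages and interactions over all 18. DESeq2 1.42.0, other scalings and filters, covariates, thinning and leaving out libraries were alternatives. A region was near a gene within 1 kb, with 10 kb, overlap alone and a −log10 q of at least 5 as alternatives. The script was tested on simulated data. Group levels are means of log2(CPM + 1), a pseudocount of 1. Gene counts of 1888871 to 9048055 per library limit the precision of low genes. Replicate libraries differed beyond sampling noise, with a chi-square per degree of freedom of 1.443 to 20.16, so none was counted as a copy.

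The 49 genes and the other lists were chosen with earlier results of these data known. All 49 could be named. Values in every library were given for the main replication, S phase entry and mitosis regulators and for any gene going against its group, in each comparison those with the largest and smallest differences were named, and from the other lists those with the 2 largest differences.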

Additional observations from a re-analysis of the deposited data

Results flagged for a closer look

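The interaction test of edgeR over all 18 libraries picked out genes whose genotype difference was not the same at both stages. Each value is the log2 difference from WT in pre-B cells minus that in pre-pro B cells. A negative value is a lower difference in pre-B cells, which may be a smaller rise or, as for E2f2, a change of sign.

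For homo over WT the S phase genes were Mcm10 (−0.97 ± 0.24, adjusted p = 0.00987), Cdt1 (−0.66 ± 0.21, adjusted p = 0.0445), Ccne1 (−1.03 ± 0.23, adjusted p = 0.00499), E2f2 (−1.25 ± 0.25, adjusted p = 0.00216) and Uhrf1 (−0.76 ± 0.19, adjusted p = 0.0125). Of the mitosis genes, those of Cdk1 control and entry were Cdk1 (−1.30 ± 0.29, adjusted p = 0.00511), Foxm1 (−0.70 ± 0.20, adjusted p = 0.0255), Cdc25b (−1.08 ± 0.25, adjusted p = 0.00732) and Cdc25c (−1.63 ± 0.33, adjusted p = 0.00254). The spindle, checkpoint and exit genes were Cdc20 (−1.11 ± 0.33, adjusted p = 0.0307), Aurka (−1.54 ± 0.31, adjusted p = 0.00249), Aurkb (−1.04 ± 0.33, adjusted p = 0.0401), Plk1 (−1.35 ± 0.37, adjusted p = 0.0187), Bub1b (−1.02 ± 0.30, adjusted p = 0.0265), Birc5 (−1.08 ± 0.28, adjusted p = 0.0141), Kif20a (−1.14 ± 0.29, adjusted p = 0.0132) and Ttk (−1.24 ± 0.37, adjusted p = 0.0309).

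Some of these calls rest on the settings. Of 22 alternatives each, Cdt1 lost its call in 15, Aurkb in 13, Cdc20 and Ttk in 10, Foxm1 in 7, Bub1b in 6, Plk1 in 3 and Birc5 in 1. The calls of Mcm10, Ccne1, E2f2, Uhrf1, Cdk1, Aurka, Kif20a, Cdc25b and Cdc25c held in all 22.

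For het over WT the genes were Ccne1 (−1.07 ± 0.23, adjusted p = 0.00948), E2f2 (−0.95 ± 0.25, adjusted p = 0.0303), Uhrf1 (−0.77 ± 0.19, adjusted p = 0.0243), Cdk1 (−1.14 ± 0.29, adjusted p = 0.0263), Aurka (−1.13 ± 0.31, adjusted p = 0.0423), Birc5 (−1.04 ± 0.28, adjusted p = 0.0378) and Cdc25c (−1.23 ± 0.34, adjusted p = 0.0378). Of 22 alternatives Birc5 lost this call in 11, E2f2, Aurka and Cdc25c in 10 and Uhrf1 and Cdk1 in 7, while Ccne1 held in all 22. The het and homo contrasts use the same WT libraries. The depth of homo pre-B replicate 3 and the spread of the WT pre-pro B libraries, given with the levels of the groups, touch these values, and their part was not tested.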

How the results depend on the processing

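Counts here are of the 49 genes called. In pre-pro B cells 46 were called for homo over WT. With library size as a covariate 1 was, and with a sex term 11, and without single libraries 19 to 47. For het over WT (2 called) DESeq2 called 26, no filter on low counts gave 6, thinning to equal depth 4, 1 fit of all 18 libraries 18, and library size or a sex term 0, with 0 to 37 without single libraries. For homo over het (0 called) these gave 0 to 1. In pre-B cells homo over WT (4 called) had 10 by DESeq2, 26 with library size, 9 in 1 fit of all libraries and 1 to 6 without single libraries. Het over WT (1 called) had 15 with library size, 0 with no filter or thinning and 0 without any single library. Homo over het (0 called) had 1 by DESeq2, 7 with library size and 1 with a sex term. The homo interaction (17 called) ran from 10 to 31 without single libraries. The het interaction (7 called) had 11 by DESeq2, 14 with library size, 3 after thinning and 1 to 24 without single libraries. Without homo replicate 3 and het replicate 2 of pre-B cells, a choice made after seeing the data, 18, 2 and 2 were called in the pre-B comparisons and 35 in the homo interaction. The stage comparisons kept 46 to 48 under every alternative run. Pcna, homo over WT in pre-pro B cells, reversed with library size as a covariate, to 0.056 (adjusted p = 0.786 by edgeR). Where a setting moved a count, the cause was not tested. Shares over all genes under each setting are not given in this section, so its counts do not set the 49 genes apart from other genes.

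Same-numbered libraries were not shown to be paired: no pair of groups had all 3 correlations of their deviations over 0.1. Between genotypes they ran from −0.614 to 0.17. Between stages of 1 genotype they ran from −0.0602 to 0.26, with 8 of 9 above 0, and sex matched in 9 of 9, but the labels do not say that a number is 1 animal. With the replicate number as a block 33, 3 and 0 genes were called in pre-pro B cells, for homo over WT, het over WT and homo over het, and 2, 0 and 0 in pre-B cells. The block gave 48, 47 and 47 for the stage comparisons in WT, het and homo and 16 and 4 for the homo and het interactions.

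For the 11 comparisons themselves, 59 pairs of a main result and a setting moved and 134 stayed the same. Over all pairs of a single value and a setting, 1132 kept direction and side of the threshold, 274 lost the call, 19 gained it, 1 reversed and 8 values without a test moved. Those 8 values were the mitosis level of homo pre-pro B cells, 6.684 with a pseudocount of 0.5 and 6.693 with 1, and counts of genes near regions: 6 (10 kb) and 0 (regions that overlap the gene) for Ikaros in WT pre-B cells, 14 (10 kb) and 4 (−log10 q of at least 5) in homo pre-B cells, 9 (−log10 q of at least 5) in homo thymocytes, and 2 (10 kb) and 0 (−log10 q of at least 5) for Aiolos in WT pre-B cells.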
